A study of Helicoverpa armigera with 6 samples.

Results

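The genes described here are 69 annotated genes of the cotton bollworm Helicoverpa armigera whose transcripts were more abundant in every library from larvae injected with siHDAC3 than in every library from larvae injected with siNC. They were selected on the measured values themselves. A gene was taken when the lowest siHDAC3 value plus 1 was at least 3 times the highest siNC value plus 1, when the siHDAC3 mean was at least 10 FPKM, and when within each group the highest value plus 1 was less than 16 times the lowest plus 1. FPKM is the number of sequenced fragments per kilobase of transcript, scaled in the authors' values by a divisor for each library. That divisor was below the library's sum of fragments in every siNC library and above it in every siHDAC3 library. Of 17082 annotated genes, 80 met the first condition, 78 the first and the second, and 69 all conditions. A further 1121 transcripts in the table lie outside the annotation, and 0 of them met the same conditions. Because the contrast of siHDAC3 with siNC chose the genes, their levels in both groups are given as a description, with no test.

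RNA of whole larvae was sequenced in 6 libraries, 3 from each group. The siHDAC3 group received a small interfering RNA against the larva's own HDAC3, and the siNC group received one directed at a gene of the nematode Caenorhabditis elegans as a non-targeting control. Both groups were injected just after the molt into the final larval instar, and no source used here gives the time between injection and RNA extraction. The siHDAC3 group rests on a single siRNA sequence, so an effect of that sequence on other transcripts and an effect of HDAC3 cannot be told apart. Whether a library holds the RNA of 1 larva or of a pool is also unknown, and the spread between libraries may therefore be partly technical.

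HDAC3 is a class I histone deacetylase. It removes acetyl groups from histone tails as the catalytic part of the NCoR/SMRT co-repressor complex, which nuclear receptors and other transcription factors bring to their target genes, and loss of acetylation there is associated with repression. In insects, nuclear receptors respond to ecdysone, and together with juvenile hormone they time the molts and metamorphosis.

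The table pairs its identifiers with no gene name or description. The reference gene table holds 1 of the 18203 identifiers and 0 of the 69 genes. The knockdown of HDAC3 itself, markers of larval tissues and the known functions of the 69 genes were therefore not analysed here, and the genes are given by identifier and by their position on the scaffolds of the table, whose build no source used here names. In RNA from whole larvae, a gene that is more active per cell and a larger share of the cells that use it cannot be told apart, just as fewer cells of a type and less RNA per cell cannot. The column headings of the table name the groups CK and siHA5. The heading siHA5 was read as the H. armigera siRNA chosen for injection, and CK as the only other group of the series. CK alone is a general mark for a control, and the direction of every difference given here rests on this reading.

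The libraries held between 10084667 and 12389053 fragments on all transcripts of the table. A single fragment on 1 kilobase was worth 0.0596 FPKM in the library with the largest divisor, siHDAC3 replicate 1, and 0.129 FPKM in that with the smallest, siNC replicate 1. The top 10 genes took 25.1% to 28.4% of the fragments in the siNC libraries, and 8.74%, 26.8% and 11.9% in siHDAC3 replicates 1, 2 and 3. The part of this difference in the levels of the 69 genes was not tested. When every library was scaled to the same summed FPKM, the ratio of lowest siHDAC3 to highest siNC value was larger in 69 of the 69 genes, with a median of 8.88.

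The 69 genes went from a small to a sizeable share of the sequenced RNA. They held 0.0762%, 0.143% and 0.0999% of the fragments on annotated genes in siNC replicates 1, 2 and 3, and 3.56%, 1.92% and 3.46% in siHDAC3 replicates 1, 2 and 3. Their median level was 3.15, 3.84 and 2.99 FPKM in the siNC libraries, and 77.3, 68.4 and 76.6 FPKM in the siHDAC3 libraries. The 4501 annotated genes with an siHDAC3 mean of at least 10 FPKM, the 69 included, had medians between 26.2 and 29.5 FPKM in all 6 libraries. The selected genes thus lay below the usual level of that set in siNC and above it in siHDAC3, which the selection itself favours.

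The size of the difference ranged widely among them. The ratio of the lowest siHDAC3 to the highest siNC value, each plus 1, was between 3.01 and 69.9 with a median of 5.19. It was at least 20 in 9 genes, at least 10 in 17 and at least 5 in 36, and it lay between 3 and 5 in the other 33. On the scale of log2(FPKM + 1), the mean siHDAC3 minus siNC difference was between 2.01 and 7.08 with a median of 3.48, with standard errors of 0.22 to 0.94. The median over all annotated genes tested was -0.03 on the same scale. Adding 1 before the logarithm understates the difference of genes that are near 0 in siNC.

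**Figure D1:**
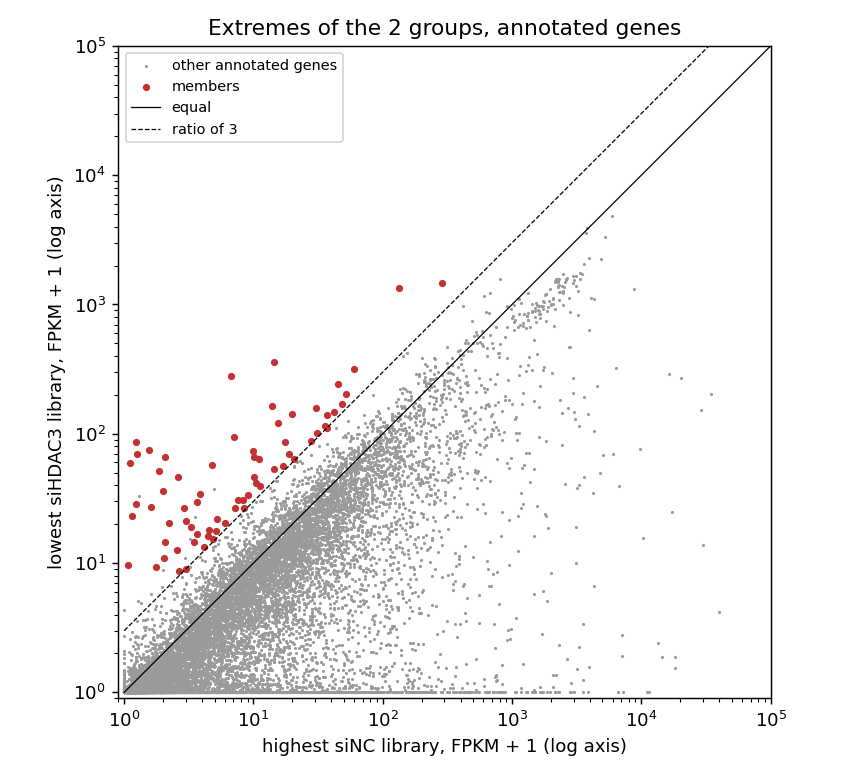
Highest siNC value (horizontal axis) against lowest siHDAC3 value (vertical axis), both as FPKM + 1 on log axes, for every annotated gene. Red points are the 69 selected genes, grey points all other annotated genes, the solid line marks equal values and the dashed line a ratio of 3. The red points lie on or above the dashed line by construction, at ratios from 3.01 to 69.9, and the grey points above that line are genes left out by the mean or by the spread.

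Limma, fitted to log2(FPKM + 1) over 10426 annotated genes, called 445 genes higher in siHDAC3 at a Benjamini-Hochberg adjusted p under 0.05, which is 4.27% of those tested. The 69 genes were all among them. Every siHDAC3 library lay above every siNC library in 1941 of 17082 annotated genes, which is 11.4%, and in 69 of the 69 by the condition that chose them. The selection used this contrast, so nothing is read from either count.

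The genes fell into 3 ranges by their level in siNC. In 16 the siNC mean was under 1 FPKM, in 31 it was between 1 and 10, and in 22 it was 10 or more. The first range held most of the large ratios, with a median of 19.1, against 4.20 in the second and 3.84 in the third. Its siHDAC3 means had a median of 65.9 FPKM, compared with 45.1 FPKM in the second range and 198.4 FPKM in the third. The genes that were almost silent in siNC were therefore not the most abundant ones in siHDAC3.

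Among the almost silent genes, HaOG208600 had the largest ratio of all, at 69.9 with the pseudocount of 1. It lies on scaffold KZ149826.1 from 1021768 to 1024777 on the minus strand, with a transcript of 853 bases. Its level was 0.151, 0.241 and 0.145 FPKM in siNC replicates 1, 2 and 3, which are 1, 2 and 1 fragments, and 211, 85.7 and 219.7 FPKM in siHDAC3 replicates 1, 2 and 3. The siNC libraries were all close to the smallest measurable value, and siHDAC3 replicate 2 was the lowest of its group. The means were 0.179 ± 0.0540 and 172 ± 74.9 FPKM (SD, n = 3 each). Without siHDAC3 replicate 2 its ratio was 171, and leaving out a library can only keep or raise this ratio. With a pseudocount of 0.1 in place of 1 it was 251, below the 279 of HaOG214230, so which gene has the largest ratio depends on the pseudocount.

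HaOG200400, on KZ149803.1 from 474073 to 480606, had 0, 0.221 and 0.265 FPKM in siNC and 104, 95.4 and 68.9 FPKM in siHDAC3. No siNC library held more than 2 of its fragments, while the siHDAC3 libraries were close to each other. HaOG214339, on KZ149804.1 from 1873427 to 1903448, had 1.06, 0.849 and 0.0636 FPKM in siNC and 147, 65.7 and 212 FPKM in siHDAC3. In siNC replicate 3 it was represented by 1 fragment, and siHDAC3 replicate 2 was again the lowest of its group. Neither gene could overlap between the groups, since the selection leaves no room for it.

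The other genes of this range, apart from those in neighbouring pairs below, were chosen for mention after their values were seen. HaOG210360, on KZ150143.1 from 163897 to 173446, held 2 fragments in siNC replicate 2 and none in the other siNC libraries, and it reached 22.0, 33.4 and 28.0 FPKM in siHDAC3. HaOG200048, on KZ149905.1 from 671771 to 676005, held 1 fragment in siNC replicate 3 and none in the other two, against 84.4, 8.69 and 82.9 FPKM in siHDAC3. The second gene was much lower in siHDAC3 replicate 2 than in the other siHDAC3 libraries, whereas the first was even. HaOG204957, a long transcript of 10272 bases on KZ149815.1, had 0.0502, 0.240 and 0.108 FPKM in siNC and 45.2, 70.5 and 27.8 FPKM in siHDAC3. Its length gave it 4, 24 and 9 fragments in siNC, so its low level there was measured on more fragments than that of the shorter genes. HaOG203422 reached 99.8, 34.8 and 139.7 FPKM in siHDAC3 from at most 0.978 FPKM in siNC. HaOG205636 reached 26.0, 91.6 and 102 FPKM from at most 0.620 FPKM. The siHDAC3 library that was lowest differed between these last genes, replicate 2 in the first and replicate 1 in the second.

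Across the 69 genes, 11 were under 1 FPKM in all siNC libraries and 6 had no fragment in at least 1 siNC library, but 0 had none in all of them. The siNC fragments summed over the group ranged from 1 to 5220 with a median of 129. In siHDAC3 the sums ranged from 371 to 175599 with a median of 4347, and the fewest fragments of a gene in any siHDAC3 library were 66. The siHDAC3 levels were thus well counted in every gene, while the ratios of the almost silent genes were set in part by the added 1.

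**Figure D2:**
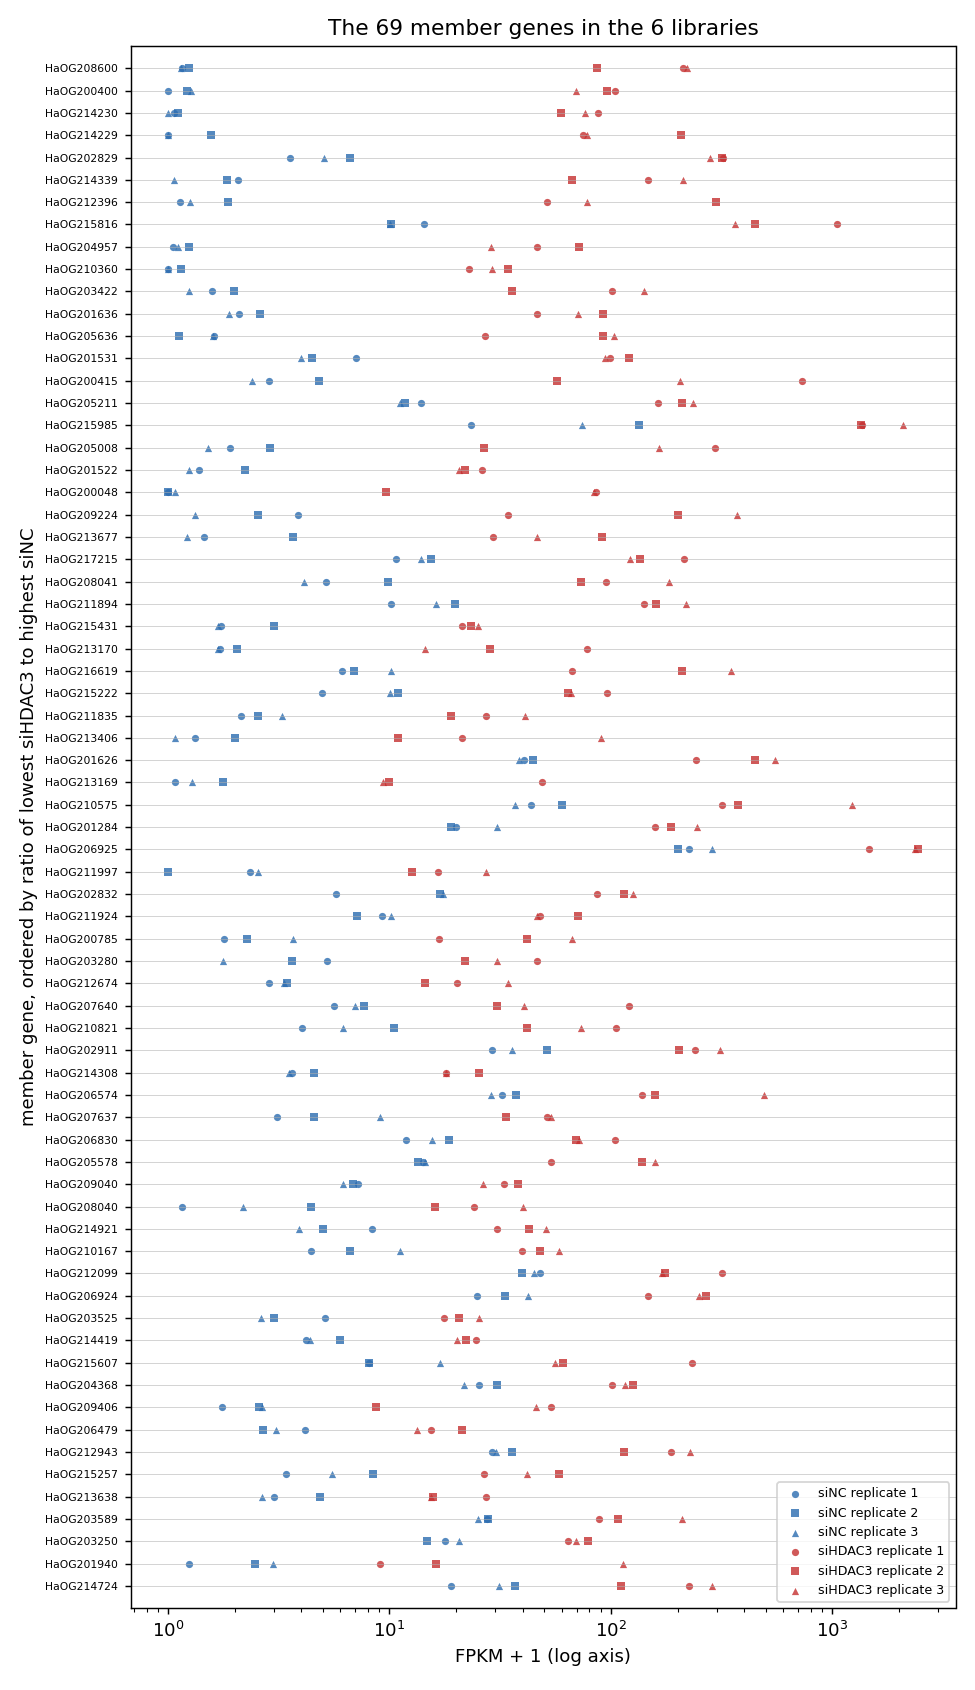
Level of each of the 69 genes as FPKM + 1 (horizontal log axis) in the 3 siNC libraries (blue) and the 3 siHDAC3 libraries (red), with a marker shape for each replicate. Genes are ordered from the largest ratio of lowest siHDAC3 to highest siNC value (69.9, top) to the smallest (3.01, bottom). Blue and red points overlap in none of them, by the condition that chose the genes.

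The most abundant of the 69 genes were also well counted in siNC. HaOG206925, on KZ149820.1 from 261830 to 262090, had the highest mean in both groups, with 225, 201 and 287 FPKM in siNC and 1459, 2437 and 2361 FPKM in siHDAC3. It is also the shortest, with a transcript of 261 bases. Replicate 1 was its lowest siHDAC3 library.

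HaOG215985, on KZ149806.1 from 2488495 to 2493101, had 22.3, 133 and 73.0 FPKM in siNC and 1367, 1349 and 2089 FPKM in siHDAC3. By the ratio of highest to lowest, each plus 1, its siNC libraries were the most uneven of all 69 genes, at 5.73. Its siHDAC3 libraries were much closer, with a ratio of 1.55.

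HaOG210575 had 42.7, 59.4 and 35.9 FPKM in siNC and 316, 374 and 1222 FPKM in siHDAC3. It lies on KZ150155.1 from 82595 to 109372, and its siHDAC3 mean of 637 ± 507 FPKM (SD, n = 3) was carried largely by replicate 3. HaOG215816, on KZ149876.1 from 896287 to 904133, had 13.3, 9.22 and 9.04 FPKM in siNC and 1044, 446 and 361 FPKM in siHDAC3. In this gene replicate 1 was the highest siHDAC3 library, and the ratio of lowest to highest was 25.3, the largest among the genes with an siNC mean of 10 FPKM or more. HaOG201626, on KZ149799.1 from 545513 to 550546, had 39.3, 43.7 and 37.4 FPKM in siNC and 242, 449 and 549.9 FPKM in siHDAC3. HaOG212099, on KZ150235.1 from 89848 to 105216, was the fourth most abundant in siNC, with 47.1, 38.7 and 44.2 FPKM, and had 317, 175 and 169.5 FPKM in siHDAC3. The siNC libraries of both genes lay within a narrow band, and their siHDAC3 libraries spread more widely.

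The summed level of all 69 genes was 770.2, 995 and 954 FPKM in siNC and 10767, 10437 and 13868 FPKM in siHDAC3 replicates 1, 2 and 3. The 3 genes with the highest siHDAC3 means, HaOG206925, HaOG215985 and HaOG210575, made up 29.2% to 41.5% of these sums. The siHDAC3 mean was at least 100 FPKM in 31 genes and between 10 and 100 FPKM in the other 38. HaOG206925, at 2086 FPKM, and HaOG215985, at 1602 FPKM, were well above all others, of which HaOG210575 came next at 637 FPKM.

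Among the genes with an siNC mean of 10 FPKM or more, several were even within both groups. These were chosen for mention after their values were seen. HaOG205211, on KZ149972.1 from 55367 to 55936, had 12.9, 10.7 and 10.1 FPKM in siNC and 163, 209 and 234 FPKM in siHDAC3. HaOG204368, on KZ149951.1 from 6176 to 6753, had 24.4, 29.7 and 20.8 FPKM in siNC and 101, 125 and 115 FPKM in siHDAC3. HaOG203250, on KZ149927.1 from 519634 to 531863, had 16.7, 13.7 and 19.5 FPKM in siNC and 63.2, 77.7 and 68.3 FPKM in siHDAC3. In each of them the gap in FPKM between the groups was larger than the range within either group. The selection itself favours such a gap. HaOG203250 also had the smallest difference on the log2(FPKM + 1) scale, 2.01 with a standard error of 0.22.

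In the range between 1 and 10 FPKM in siNC, HaOG202829 stood out by its ratio of 42.2. It lies on KZ149810.1 from 496998 to 525021 on the plus strand and had 2.55, 5.66 and 4.07 FPKM in siNC, against 322, 315 and 280.3 FPKM in siHDAC3. Its siHDAC3 libraries were the most even of all 69 genes, with a ratio of highest to lowest of 1.15. HaOG201531 and HaOG201636, both chosen after their values were seen, had the next largest ratios of this range, 13.3 and 17.8. HaOG201531 had 6.07, 3.46 and 2.99 FPKM in siNC and 98.3, 120.0 and 92.9 FPKM in siHDAC3. HaOG201636, whose gene spans 61149 bases of KZ149799.1 and is the widest of the set, had 1.09, 1.61 and 0.883 FPKM in siNC and 45.4, 91.3 and 70.1 FPKM in siHDAC3. Most genes of this range lay closer to the lower limit of 3.

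Measured with the added 1, the libraries of siHDAC3 differed more from each other in these genes than those of siNC did. The ratio of highest to lowest value within siHDAC3, each plus 1, had a median of 2.15 and reached 12.8. Within siNC it had a median of 1.63 and reached 5.73. In the 4501 annotated genes with an siHDAC3 mean of at least 10 FPKM, the medians were 1.63 in siHDAC3 and 1.5 in siNC. A ratio under 2 was found in 33 of the 69 genes within siHDAC3 and in 51 within siNC. The added 1 lowers this ratio most where levels are near 0, which was more often so in siNC. HaOG214339 had between 0.0636 and 1.06 FPKM in siNC, and its ratio there was 1.94. The selection also used these ratios. It held the siNC values well below the lowest siHDAC3 value, and its limit of 16 left out 9 genes, each for its siHDAC3 libraries. The parts of the added 1 and of the selection in the difference between the groups were not tested, so nothing is read from that difference.

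After HaOG202829, the most even genes in siHDAC3 were HaOG215431 and HaOG214419. HaOG215431, on KZ149870.1 from 797183 to 840565, had 0.739, 2.0 and 0.676 FPKM in siNC and 20.2, 22.4 and 24.0 FPKM in siHDAC3. HaOG214419, on KZ149858.1 from 1208348 to 1233453, had 3.18, 4.98 and 3.38 FPKM in siNC and 23.7, 21.2 and 19.3 FPKM in siHDAC3. Both had siHDAC3 levels near 20 FPKM, and in both siNC replicate 2 was the highest control.

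At the other end, 11 genes had a ratio of at least 5 between their siHDAC3 libraries. HaOG200415, on KZ149868.1 from 955204 to 956352, had the largest, with 1.86, 3.79 and 1.38 FPKM in siNC and 728, 56.0 and 203 FPKM in siHDAC3. HaOG201940, on KZ149898.1 from 46907 to 48454, had 0.250, 1.46 and 1.99 FPKM in siNC and 8.04, 15.3 and 112 FPKM in siHDAC3. HaOG205008, the longest transcript of the set with 11195 bases, had 0.910, 1.89 and 0.518 FPKM in siNC and 293, 25.8 and 163 FPKM in siHDAC3. It lies on KZ149815.1 from 905150 to 937838. In the first and the last of these, siHDAC3 replicate 1 was highest and replicate 2 lowest, and in HaOG201940 replicate 3 was far above both others.

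The low library was not the same in all uneven genes. Of the 11, 4 were lowest in siHDAC3 replicate 1, 5 in replicate 2 and 2 in replicate 3. HaOG209224, chosen after its values were seen, had 2.87, 1.55 and 0.323 FPKM in siNC and 33.2, 201 and 371 FPKM in siHDAC3, which is the order opposite to that of siNC. HaOG212396, also chosen after its values were seen, had 50.6, 298 and 76.6 FPKM in siHDAC3 and less than 1 FPKM in each siNC library. The lowest siHDAC3 library thus differed from gene to gene.

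The order of the libraries within a group was then counted over all 69 genes. The highest siNC library was replicate 2 in 39 genes (56.5%), replicate 3 in 18 (26.1%) and replicate 1 in 12 (17.4%). Among the 4501 annotated genes with an siHDAC3 mean of at least 10 FPKM, replicate 2 was highest in 29.3%, replicate 3 in 34.9% and replicate 1 in 35.8%. Replicate 2 was thus the most frequent highest control in the 69 genes and the least frequent in the larger set. In siHDAC3, replicate 3 was highest in 32 genes (46.4%), replicate 1 in 21 (30.4%) and replicate 2 in 16 (23.2%). The shares among the 4501 genes were 26.1% for replicate 3, 34.9% for replicate 1 and 39.0% for replicate 2. In siNC the most frequent highest library, replicate 2, also gave the selected genes their largest share of fragments, 0.143%. In siHDAC3 the least frequent, replicate 2, gave them the smallest, 1.92%. The most frequent in siHDAC3, replicate 3, did not give them the largest share: it gave 3.46%, and replicate 1 gave 3.56%. Both measures come from the same values of the same genes, so they are not independent.

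**Figure D3:**
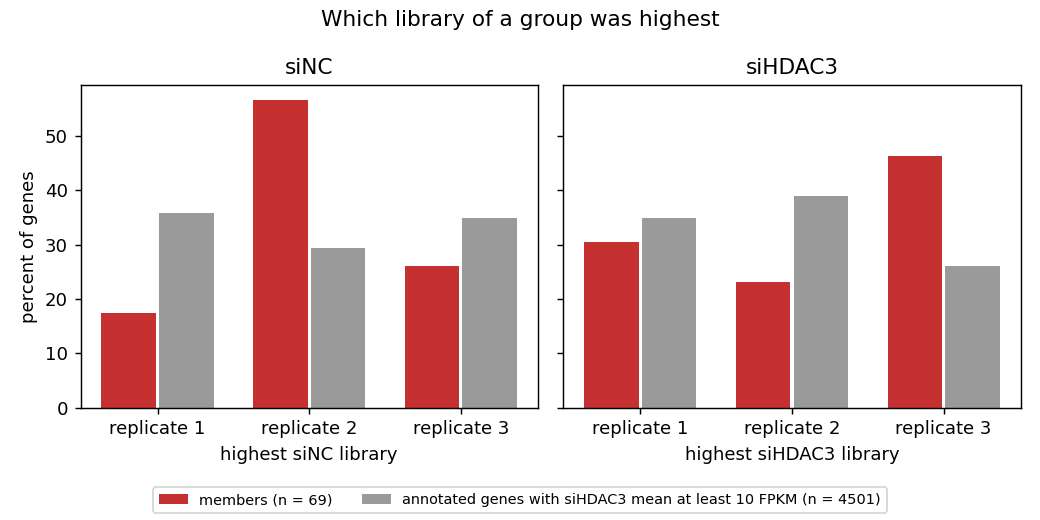
Percent of genes (vertical axis, from 0) whose highest siNC library (left) or highest siHDAC3 library (right) was replicate 1, 2 or 3. Red bars are the 69 selected genes and grey bars the 4501 annotated genes with an siHDAC3 mean of at least 10 FPKM, and the tallest red bars are siNC replicate 2 (56.5%) and siHDAC3 replicate 3 (46.4%).

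The structure of the genes was not used to choose them. Their transcripts had a median length of 1548 bases (25th to 75th percentile 930 to 2343), compared with 1368 bases in the 4501 genes and 1347 bases in all annotated genes. From start to end on the scaffold, however, they covered a median of 8705 bases (25th to 75th percentile 4189 to 18135), against 4436 and 3958.5 bases. A span of at least 20000 bases was found in 16 of the 69 genes (23.2%), in 12.1% of the 4501 and in 11.2% of all annotated genes. The transcript made up a median of 22.3% of the span in the 69 genes, 33.4% in the 4501 and 36.1% in all. The selected genes therefore had transcripts of ordinary length spread over wider stretches of scaffold, a difference that is given as a description without a test.

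**Figure D4:**
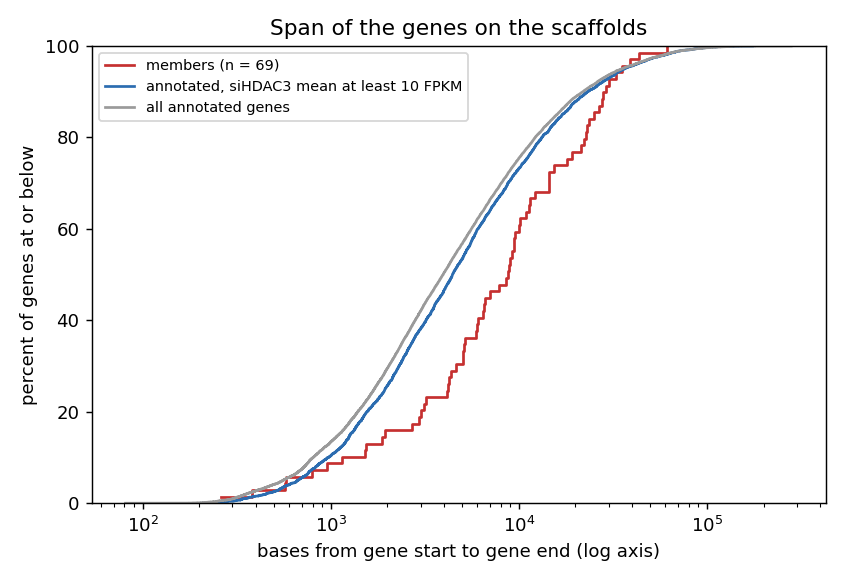
Cumulative percent of genes (vertical axis) by the number of bases from gene start to gene end (horizontal log axis) for the 69 selected genes (red), the 4501 annotated genes with an siHDAC3 mean of at least 10 FPKM (blue) and all annotated genes (grey). The red curve runs to the right of the others over most of its range, with a median of 8705 bases against 4436 and 3958.5.

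Short and compact genes were present too. The transcript was under 500 bases in 9 of the 69 genes (13%), beside 11.5% of the 4501 genes and 14.2% of all annotated genes. In 5 genes (7.25%) the transcript length equalled the span, so that the table leaves no room for an intron. These were HaOG206925, HaOG201940, HaOG210821, HaOG210167 and HaOG215222, the last 3 chosen after their values were seen. Such genes made up 10.7% of the 4501 and 14.1% of all annotated genes. The strands were evenly used, with 34 genes on the plus and 35 on the minus strand.

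The 69 genes lay on 56 of 894 scaffolds with annotated genes, with at most 3 on a scaffold. In 8 of them (11.6%) the next annotated gene on the scaffold was also one of the 69, and these formed 4 pairs, each with both genes on the same strand. Of the 17013 annotated genes outside the set, 125 (0.735%) had one of the 69 next to them. Neighbours on a scaffold share their surroundings and may be copies of each other, and the sequences behind the identifiers were not analysed here. How far fragments were divided between similar transcripts is therefore not known for these pairs.

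The most abundant pair was HaOG206924 and HaOG206925 on KZ149820.1, separated by 1238 bases on the plus strand. HaOG206924, from 241502 to 260591, had 23.8, 32.1 and 41.2 FPKM in siNC and 146, 267 and 249 FPKM in siHDAC3. Its neighbour, given above as the most abundant gene of the set, was the higher of the pair in every library, by between 6.25 and 9.99 times on the FPKM scale, which is per length. In siHDAC3 both genes were lowest in replicate 1 and highest in replicate 2, whereas in siNC their order differed apart from replicate 3, which was highest for both.

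HaOG208040 and HaOG208041 on KZ149824.1 lie 9414 bases apart on the plus strand, from 768082 to 776670 and from 786085 to 787958. HaOG208040 had 0.156, 3.41 and 1.19 FPKM in siNC and 23.1, 15.1 and 39.2 FPKM in siHDAC3. HaOG208041, with a transcript of 279 bases, had 4.16, 8.85 and 3.10 FPKM in siNC and 93.9, 72.1 and 181 FPKM in siHDAC3. The order of the siHDAC3 libraries was the same in both genes, with replicate 3 highest and replicate 2 lowest. HaOG208041 was between 4.08 and 4.77 times as high as HaOG208040 in the siHDAC3 libraries. In siNC replicates 1, 2 and 3 it was 26.8, 2.59 and 2.60 times as high. Both genes rested on few fragments in siNC, HaOG208040 on 2, 55 and 16 and HaOG208041 on 9, 24 and 7.

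HaOG214229 and HaOG214230 on KZ149857.1 lie 926 bases apart on the minus strand, from 1247621 to 1254258 and from 1255185 to 1262183. HaOG214229 had no fragment in siNC replicates 1 and 3 and 4 fragments (0.562 FPKM) in replicate 2, and it had 74.1, 207 and 77.3 FPKM in siHDAC3. HaOG214230 had 0.0696, 0.111 and 0 FPKM in siNC and 86.8, 58.7 and 75.6 FPKM in siHDAC3. Both were almost silent in siNC. In siHDAC3 replicates 1 and 3 they were within 1.17 times of each other, but in replicate 2 HaOG214229 was at its highest and HaOG214230 at its lowest.

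HaOG213169 and HaOG213170 on KZ150299.1, from 6790 to 21211 and from 21222 to 32743, are separated by 10 bases on the plus strand. HaOG213169 had 0.0745, 0.772 and 0.285 FPKM in siNC and 47.8, 8.93 and 8.40 FPKM in siHDAC3. HaOG213170 had 0.716, 1.05 and 0.685 FPKM in siNC and 77.3, 27.3 and 13.4 FPKM in siHDAC3. Both were highest in siHDAC3 replicate 1 and lowest in replicate 3, and both belong to the 11 uneven genes. With so small a gap, fragments of a transcript that ran through both could have been counted to either.

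**Figure D5:**
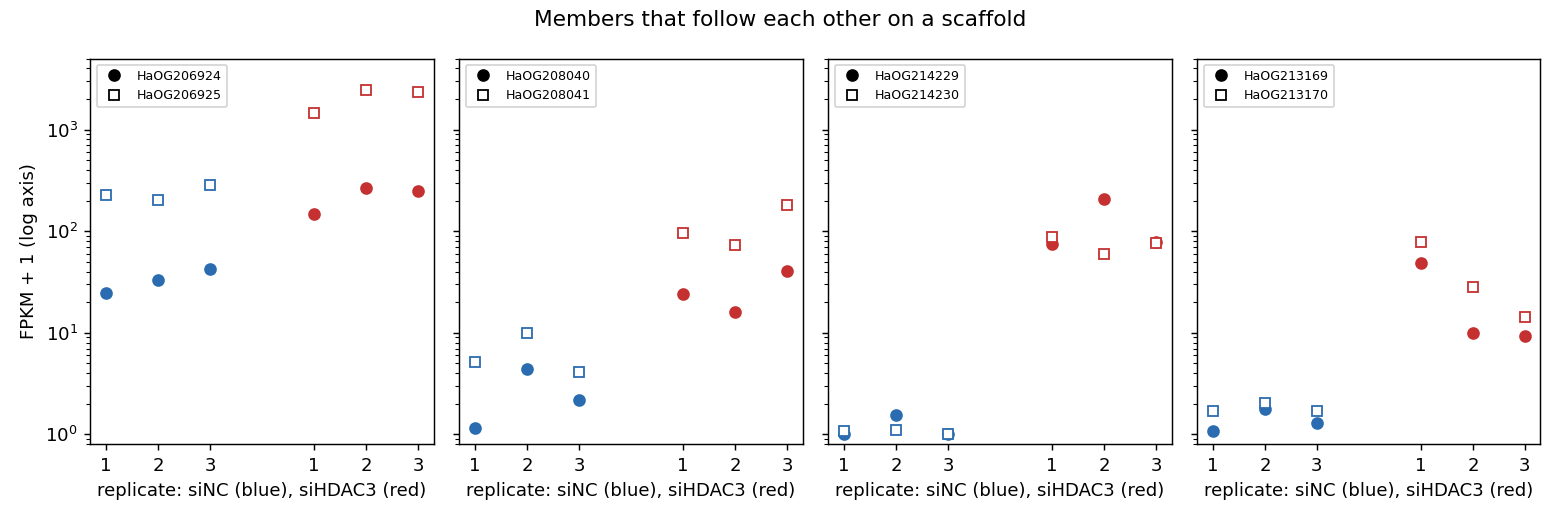
Level as FPKM + 1 (vertical log axis) of the 4 pairs of selected genes that follow each other on a scaffold, by replicate, with siNC in blue and siHDAC3 in red. Filled circles are the first gene of a pair and open squares the second. In siHDAC3 both genes of a pair share the order of the libraries in every panel except the third. There HaOG214229 and HaOG214230 have opposite orders, with the widest distance in replicate 2.

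Close to a further pair of the set, the genes in between did not share the pattern. HaOG202829 and HaOG202832 on KZ149810.1 lie 4453 bases apart on opposite strands, with 2 annotated genes between them. HaOG202832, from 529475 to 538179 and chosen after its values were seen, had 4.71, 15.9 and 16.5 FPKM in siNC and 85.8, 114 and 125 FPKM in siHDAC3. Of the genes between, HaOG202830 held 1 fragment in all libraries together. HaOG202831 had 10.4, 17.2 and 9.35 FPKM in siNC and 10.2, 51.0 and 19.7 FPKM in siHDAC3, so that its groups overlapped. It overlaps HaOG202832 by 27 bases on the other strand.

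Counting may also be uncertain for the genes that overlap another annotated gene, since no source used here says whether strand was used in counting. This applied to 6 of the 69, namely HaOG201636, HaOG202832, HaOG209040, HaOG210167, HaOG213638 and HaOG215431. The overlapping genes other than HaOG202831 were at most 5.80 FPKM in any library, and that within HaOG201636 was at 0 in all of them.

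The nearest annotated gene outside the set, with a mean of at least 1 FPKM over all libraries, gave 67 distinct neighbours for the 69 genes. Their siHDAC3 minus siNC difference, as log2 of the group means plus 1, had a median of 0.25 (25th to 75th percentile -0.34 to 1.07). Over the 9812 annotated genes that pass the same limit, the median was -0.01 (25th to 75th percentile -0.77 to 0.53). A difference of at least 1 was found in 18 of the neighbours (26.9%) in the direction of siHDAC3, compared with 12.1% of all, and in 8 (11.9%) in the direction of siNC, compared with 21.2%. Without the limit of 1 FPKM the median of the nearest genes was 0.00857, beside 0 for all genes, and without siHDAC3 replicate 1 it was 0.136 with the limit. The higher median was thus not kept when unexpressed neighbours were included. A gene without expression in both groups has a difference of 0 by this measure. Such genes draw the median towards 0, so this setting cannot decide whether expressed neighbours differed.

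Single neighbours reached the levels of the set. HaOG200399, chosen after its values were seen, ends 2271 bases before HaOG200400 on the same strand. It had no fragment in any siNC library and 138, 3.36 and 148 FPKM in siHDAC3, and it was left out because its siHDAC3 libraries differed by more than the limit of 16. HaOG215222 is flanked by HaOG215221, at a mean of 19.5 FPKM in siNC and 120.3 in siHDAC3, and by HaOG215223, at 11.8 and 130.3 FPKM. These flanking genes and HaOG215222, which had 3.94, 9.97 and 9.09 FPKM in siNC and 95.4, 63.3 and 64.7 FPKM in siHDAC3, were chosen after their values were seen. On the other side, HaOG215815 next to HaOG215816, also chosen after its values were seen, was lower in siHDAC3, with means of 202 FPKM in siNC and 40.7 FPKM in siHDAC3. Neighbours thus differed in direction from gene to gene.

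The limit on the ratio fell among closely spaced values, whereas the limits on the mean and on the spread fell in wider gaps. Just inside the ratio were HaOG214724 at 3.01 and HaOG201940 at 3.02, and just outside were HaOG204931 at 2.94 and HaOG202378 at 2.90. Of these, HaOG214724 had 18.0, 36 and 30.1 FPKM in siNC and 224, 110.3 and 286 FPKM in siHDAC3, and HaOG202378 had 4.28, 7.0 and 6.03 FPKM in siNC and 22.2, 29.2 and 33.0 FPKM in siHDAC3. Ratios near 3 leave no room for overlap, so the groups were apart on either side of the limit. The ratio of HaOG214724 was 6.08 without siHDAC3 replicate 2, and that of HaOG201940 was 5.44 without siHDAC3 replicate 1. In each case the library left out was the lowest siHDAC3 library of the gene, so the ratio had to rise. Just inside the mean were HaOG206479 at 15.6 FPKM and HaOG211997 at 17.8 FPKM, and just outside were HaOG204393 at 8.94 FPKM and HaOG211010 at 5.87 FPKM. Just inside the limit on the spread were HaOG200415 at 12.8 and HaOG201940 at 12.5, and just outside were HaOG203563 and HaOG203989, both at 16.9.

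The limit on the spread left out 9 genes that met the other conditions. HaOG203563 had 0.612, 0.122 and 0.293 FPKM in siNC and 95.7, 4.71 and 93.1 FPKM in siHDAC3, and HaOG203989 had 1.35, 1.81 and 1.93 FPKM in siNC and 9.90, 43.2 and 183 FPKM in siHDAC3. Replicate 2 was the low siHDAC3 library in the first and replicate 1 in the second. At the far end, HaOG200114, chosen after its values were seen, reached 7.80, 39.9 and 1548 FPKM in siHDAC3 from less than 1 FPKM in each siNC library.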

How the data were processed

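Whole larvae were sequenced in 6 libraries (siNC and siHDAC3, 3 each). The table deposited by the authors holds FPKM values, 1 for each gene in each library. The submitters' processing notes name Bowtie 0.12.2 and mouse genome builds, whereas the table holds H. armigera scaffolds, so whether Bowtie made this table is unclear. No source used here gives the counting tool or the H. armigera build. The labels name a TruSeq kit and the study's methods an NEBNext Ultra kit. In each library, FPKM times gene length came in whole multiples of 1 step, within a tolerance of 0.1 fragments, which gave the fragments and divisors. The divisors, between 7751255 and 9717215 for siNC and between 11829387 and 16787229 for siHDAC3, are not the sums of fragments, so the deposited FPKM values include a scaling between libraries. The sums of fragments set the counting error only, whereas the divisors set the level of every FPKM value of a library.

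The selected genes, the lists and the rule for named genes were chosen with earlier results of these data known. Named were the 6 genes with the largest ratio and the 6 with the highest siHDAC3 mean, the 4 with the highest siNC mean, the 3 most and the 3 least even in siHDAC3, genes without siNC fragments, adjoining genes, the longest and the shortest gene, and genes beside each limit. All other genes were chosen after their values were seen, or are named for lying between or overlapping selected genes. The background share came from limma 3.58.1 in R 4.3.3 on log2(FPKM + 1), with a variance trend, Benjamini-Hochberg adjustment, and annotated genes of at least 0.5 FPKM in at least 3 libraries. The fit was tested on simulated data. Lengths and positions were taken from the table. The number of value columns not used was 0. Alternatives were other pseudocounts, limits, filters and scalings, limma voom on recovered fragments, a replicate block, and each library left out. Leaving out libraries for the neighbour, length and nearest-gene results, and the scalings for the highest siNC library, were added after seeing the data.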

Additional observations from a re-analysis of the deposited data

How the results depend on the processing

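The number of selected genes, 69, was 43 with a pseudocount of 5, 143 at a ratio of 2, 44 at a ratio of 4, 266 with the ratio of group means, and 189 with each library scaled to the same sum, which kept 68 of the 69. Leaving out 1 library gave 81 to 143 (143 without siHDAC3 replicate 1, 139 without siHDAC3 replicate 2). A library left out can only keep or raise the ratio of lowest to highest, so these higher counts were nearly fixed in advance. Scaling to the sum moved the median log2 difference of all expressed genes to 0.79 and that of the nearest genes to 1.17, the count of selected genes next to each other from 8 to 20, the genes called higher to 2896, and the genes highest in siHDAC3 replicate 2 from 16 to 9. The nearest-gene median was 0.00857 without a limit on low values, and 0.136 (without siHDAC3 replicate 1) to 0.327 when a library was left out. Genes called higher, 445, were 102 to 372 without 1 library (102 without siNC replicate 3, 154 without siHDAC3 replicate 3, 155 without siNC replicate 1, 225 without siNC replicate 2). The count of adjoining genes was 8 to 20 (20 without siHDAC3 replicate 2), and the median transcript length 1413 to 1559 bases (1413 without siHDAC3 replicate 3). With a replicate block, 187 genes were called, among them the 69. Libraries with the same number showed no sign of deviating together (correlations -0.0784, 0.0553 and -0.00561). Those with different numbers reached -0.164 and 0.155, so these values cannot exclude a pairing by number. Limma voom called 326 genes higher, 61 of the 69 among them, and limma without a filter 321, with 68 of the 69. Without 1 library, 59 to 66 of the 69 were called. The selection used this contrast, so nothing is read from these counts. The ratio of lowest to highest was at least 4.09 in all 69 genes with the scaling to the sum and at least 3.03 with median-of-ratios scaling.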
